A study of Mus musculus with 17 samples.

Results

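The insulin-like growth factor (IGF) system was described here by 10 genes of the mouse ovary: the ligands Igf1 and Igf2, the receptor Igf1r, the binding proteins Igfbp2, Igfbp3, Igfbp4, Igfbp5, Igfbp6 and Igfbp7, and the protease Pappa. Members were taken by gene symbol in the array annotation, which gave 23 probes for these 10 genes among 45281 probes and 19057 named genes in all. Total RNA labelled as ovary, from females aged 12 weeks of an FVB/N x C57/BL6 cross, was hybridised to 17 Illumina BeadChip arrays, each of which reads 1 RNA sample with bead-bound probes. The 4 genotypes were wild type (4 arrays), the Fshr mutant called Fshr-CAM with intact Lhr (4 arrays), Lhr-null with wild-type Fshr (4 arrays) and the double mutant labelled Fshr-CAM/Lhr-null (5 arrays). The title of the series concerns gene expression that depends on gonadotropins, and Fshr and Lhr encode the receptors of the gonadotropins FSH and LH. What CAM stands for and what drives the Fshr-CAM allele are not given in the sources used here, nor whether each array held a separate animal. The p-values therefore measure only the spread between these arrays, which may in part be technical.

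IGF1 and IGF2 are small secreted peptides that act through the IGF1 receptor, a tyrosine kinase at the cell surface. Binding proteins hold most of the extracellular ligand, and proteases such as pappalysin, the product of Pappa, cut certain binding proteins and so free the ligand. In the rodent ovary, granulosa cells of growing follicles are known to make IGF1, which enhances their response to FSH.

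The array labelled Lhr-null replicate 1 stood apart, as its highest Pearson r with any other array across the detected probes was 0.845, against 0.957 to 0.987 between other arrays of the same genotype. Its mean log2 signal over 8 pituitary genes was 13.17, against 4.40 to 4.61 on the other arrays, and its signal for Fshr, a granulosa cell gene, was 4.51, at background. It was left out of the comparisons below, which rest on 16 arrays, and results with all 17 arrays are given where they bear on a call. Signals of Fshr and of other cell type markers were normalised together with this array. Those of IGF system and pathway genes were normalised without it, except where its own values are given. Levels are log2 signals after background correction and quantile normalisation by neqc of limma, and a difference was called when limma's p-value, adjusted by the Benjamini-Hochberg method over 23098 probes, was under 0.05. The Fshr probe read 8.33 to 9.14 in wild type, 11.10 to 11.87 in Fshr-CAM, 9.13 to 9.90 in Lhr-null and 11.40 to 11.70 in the double mutant except for the array labelled replicate 4. That array read 9.71, within the Lhr-null range and below every other array with Fshr-CAM, so its Fshr signal went against its label. By symbol, gene ID and RefSeq transcript, 0 probes were annotated to Lhcgr, the LH receptor gene, which was not analysed here. Granulosa cell markers were present throughout, with 9 of 10 detected on each of the 16 arrays. The Lhr-null arrays also carried markers of other tissues: the mean over 8 oviduct and ciliated cell genes was 8.11 to 9.81, against 5.47 to 5.65 in wild type and 5.29 to 6.37 in the double mutant, and Lhr-null replicate 2 reached 9.32 over 7 spermatid genes.

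Of the 23 member probes, 18 were detected on all 17 arrays and 5 on none. Every gene had at least 1 detected probe, so no member was lost to the filter on low signals. The undetected probes were 1 of the 4 for Igf1r and 4 of the 5 for Igfbp7. Their log2 signals stayed between 4.24 and 4.57, and Igfbp7 is represented by a single probe. Across the 6 comparisons 2 member genes were called: Igfbp2 fell in Lhr-null and Igfbp5 rose in the double mutant, each against wild type.

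The share of member probes called was close to that of the array as a whole. In Lhr-null against wild type 2 of 18 member probes were called (11.1%), both lower, while 9.57% of all probes were called in either direction and 5.87% were lower. In the double mutant against wild type 2 of 18 were called (11.1%), both higher, while 7.9% of all probes were called and 3.23% were higher. The called probes belong to 1 gene in each comparison. No member probe was called in the other 4 comparisons by limma. There, 2 of 18 had an unadjusted p under 0.05 for Fshr-CAM against wild type (0.13% of all probes called, 5.39% under 0.05 unadjusted) and 5 for the double mutant against Lhr-null (0.563% and 12.6%). The same count was 1 for the double mutant against Fshr-CAM (1.62% and 16%) and 1 for the interaction, the effect of Fshr-CAM without Lhr minus that with Lhr (0.156% and 6.88%).

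The median log2 difference over the 18 member probes was 0.10 for Fshr-CAM against wild type and 0.05 for Lhr-null against wild type, where the medians over all probes were -0.00 and -0.03. For the double mutant it was 0.15 against wild type, 0.14 against Lhr-null and 0.06 against Fshr-CAM, where all probes gave 0.03, 0.05 and 0.02. Member probes lay on both sides of 0, with 10 to 12 of 18 above it in these 5 comparisons. In Lhr-null against wild type the groups did not overlap at 3 probes that were higher (2 of Igf1 and 1 of Igf2; 9.6% of all probes) and at 2 that were lower (Igfbp2; 12.4% of all probes). In the double mutant against wild type this held for 1 higher probe (Igfbp5; 6.45%) and 1 lower (Igfbp3; 6.07%). It held for 1 higher probe against Lhr-null (Pappa; 5.78%) and 1 lower against Fshr-CAM (Igfbp3; 3.61%), and for 0 in Fshr-CAM against wild type (3.17% in either direction).

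**Figure D1:**
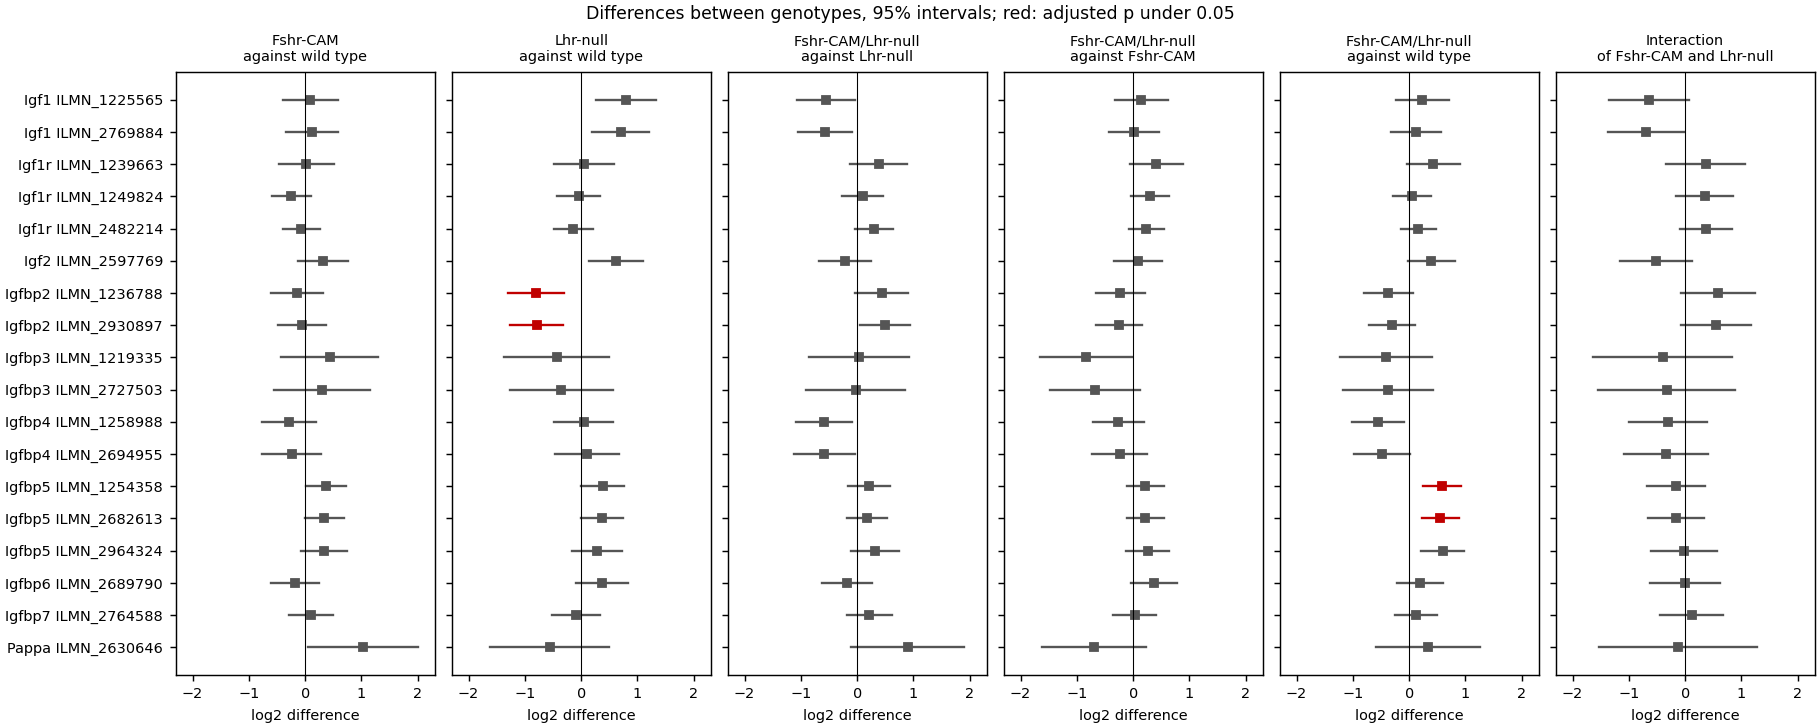
Log2 differences of the 18 detected member probes (vertical axis) in 6 comparisons on 16 arrays, with 95% intervals on the horizontal axis. Red marks the 4 calls: both Igfbp2 probes in Lhr-null against wild type and 2 of 3 Igfbp5 probes in the double mutant against wild type.

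Igfbp2 and Igfbp5 are next to each other among the annotated genes of chromosome 1, on opposite strands. Because they are the called members, the 250 bases before the RefSeq start of each gene (build GRCm38.p6) are shown 5′ to 3′, from chr1:72824230-72824479 on the plus strand for Igfbp2 and from chr1:72874866-72875115 on the minus strand for Igfbp5. Capitals mark GC boxes, the letters GGGCGG, which were searched on both strands.
Igfbp2: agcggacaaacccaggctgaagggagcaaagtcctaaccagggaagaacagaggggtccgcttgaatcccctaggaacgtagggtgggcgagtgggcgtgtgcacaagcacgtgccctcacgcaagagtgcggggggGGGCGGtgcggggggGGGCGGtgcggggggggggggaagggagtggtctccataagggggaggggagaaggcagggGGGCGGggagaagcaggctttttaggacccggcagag
Igfbp5: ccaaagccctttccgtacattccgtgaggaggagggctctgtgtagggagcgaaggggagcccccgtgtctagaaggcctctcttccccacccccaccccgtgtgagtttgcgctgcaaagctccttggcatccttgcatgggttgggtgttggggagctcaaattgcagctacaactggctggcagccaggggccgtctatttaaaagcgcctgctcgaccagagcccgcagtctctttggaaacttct
The Igfbp2 window held 3 GC boxes, which began 113, 98 and 37 bases before the start, and the Igfbp5 window held none; 32.7% of 32851 such windows in the annotation held at least 1. Igfbp2 has a further annotated start whose window held none either. The GC content was 67.2% for the Igfbp2 window shown and 58.8% for Igfbp5, against a median of 52.4% over all windows. Other motifs were searched on both strands and were in neither window shown. They were the TATA box TATAAA (in 12.4% of all windows), the cAMP response element TGACGTCA (1.55%) and the part of it, TGACG, which overlaps it (17.8%). The Nr5a motif AAGGTCA (4.08%) and the FOXO motif GTAAACA (3.17%) were also searched. A match describes letters, and no match says only that they are not in the window. Over all members, 9 of 10 had at least 1 window in the promoter table, and 5 of their 13 windows held a GC box.

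**Figure D2:**
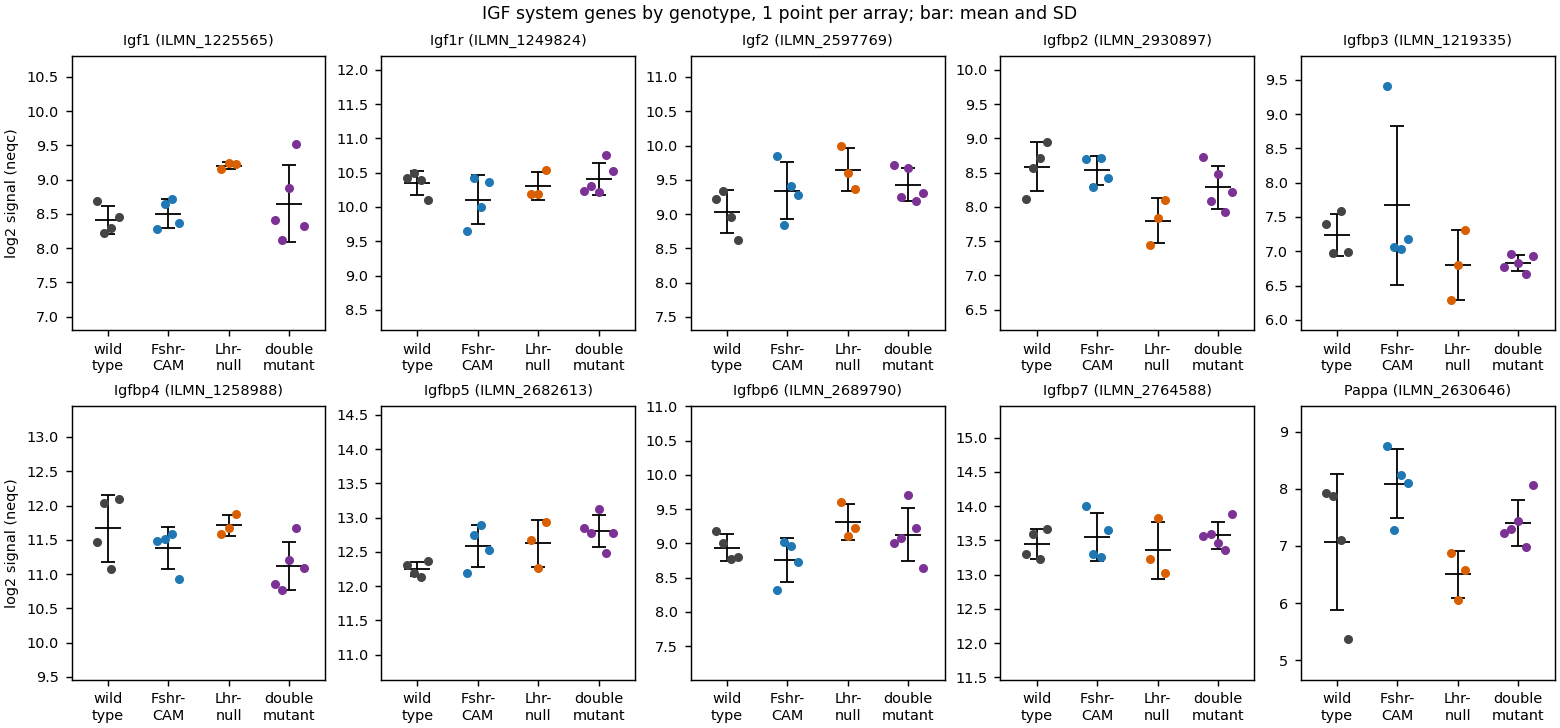
Log2 signal (vertical axis) of each member's brightest probe in the 4 genotypes (horizontal axis), with 1 point per array on 16 arrays and bars for the mean and SD. The 3 Lhr-null arrays lie below all wild-type arrays for Igfbp2 and above them for Igf1 and Igf2, and Fshr-CAM replicate 1 lies apart for Igfbp3.

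The ligand Igf1 had its highest mean level in Lhr-null. At the probe ILMN_1225565 its log2 signal was 8.69, 8.23, 8.29 and 8.46 in wild type and 8.28, 8.65, 8.72 and 8.37 in Fshr-CAM. It was 9.15, 9.24 and 9.23 in Lhr-null and 8.41, 8.12, 8.88, 9.52 and 8.32 in the double mutant. The 3 Lhr-null arrays thus lay above every wild-type and Fshr-CAM array, while the double mutant spread widely, with the array labelled replicate 4 above all Lhr-null arrays. Such separation from wild type was found at 9.6% of all probes, and the share for Fshr-CAM was not computed. The Lhr-null level exceeded wild type by 0.79 ± 0.25 (SE) on the log2 scale, a ratio of 1.73 with a 95% interval of 1.20 to 2.50, but missed the threshold at an adjusted p of 0.0581 by limma. The second probe, ILMN_2769884, tracked it across the 16 arrays (Pearson r 0.961, a description) and gave a difference of 0.70 ± 0.24 (SE) with an adjusted p of 0.0758. In order of mean level at ILMN_1225565, wild type (8.42 ± 0.21 SD, n = 4), Fshr-CAM (8.51 ± 0.21 SD, n = 4) and the double mutant (8.65 ± 0.56 SD, n = 5) did not differ beyond their spread, and Lhr-null followed at 9.20 ± 0.05 (SD, n = 3).

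The double mutant had less Igf1 signal than Lhr-null by 0.55 ± 0.24 (SE) at ILMN_1225565, with an adjusted p of 0.354 by limma, and by 0.57 ± 0.23 (SE) at ILMN_2769884, with an adjusted p of 0.317. Neither difference passed the threshold, and the groups overlapped through the array labelled double-mutant replicate 4, whose Fshr signal lay in the Lhr-null range. Without it, in a fit on 15 arrays, Igf1 was higher in Lhr-null than in wild type at both probes. The differences were 0.79 ± 0.17 (SE) with an adjusted p of 0.00967 by limma and 0.70 ± 0.19 (SE) with an adjusted p of 0.0301. The array left out is in neither of these genotypes. For Lhr-null against wild type this fit called 1004 higher and 1449 lower of 22958 probes. With that array kept, 853 and 1357 of 23098 were called. At ILMN_1225565 the difference stayed at 0.79, while its SE, which uses the spread shared by all genotypes, went from 0.25 to 0.17. In the same fit the difference between the double mutant and Lhr-null was -0.77 ± 0.17 (SE) at ILMN_1225565, past the threshold with an adjusted p of 0.0353. At ILMN_2769884 it was -0.75 ± 0.19 (SE) and did not pass, with an adjusted p of 0.0633 by limma. For the double mutant against Lhr-null this fit called 216 higher and 197 lower of 22958 probes. With the array labelled replicate 4 kept, 20 and 110 of 23098 were called. Calls in this comparison thus increased across the array, and the gain was not particular to Igf1. With all 17 arrays the Lhr-null difference shrank to 0.29 at ILMN_1225565, with an adjusted p of 0.741, where Lhr-null replicate 1 read 7.20. With the array labelled replicate 4 kept, Igf1 also passed in Lhr-null against wild type at ILMN_1225565 under some settings. The adjusted p by limma was 0.0484 without double-mutant replicate 2, 0.0488 under a stricter detection filter, 0.0477 with array weights and no intensity trend, and 0.0167 on the 7 arrays compared.

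Adipocyte and oviduct markers were also highest in Lhr-null, but not on every array with a high Igf1 signal. Over 8 adipocyte genes the mean log2 signal was 6.61 to 6.72 in Lhr-null, 5.47 to 5.98 in wild type, 5.75 to 6.05 in Fshr-CAM and 5.61 to 6.19 in the double mutant. Of these 8 genes 5 to 6 were detected on Lhr-null arrays and 3 to 4 on wild-type arrays, with Fabp4 and Retn undetected on all 16. The oviduct and ciliated cell genes given above, of which 7 to 8 of 8 were detected in Lhr-null and 4 to 6 in wild type, were likewise highest in Lhr-null. Among double-mutant arrays, the one labelled replicate 4 (Igf1 9.52) read 7.18 for Adipoq, an adipocyte hormone gene, and 6.63 for Ovgp1, an oviduct secretory gene. Replicate 3 (Igf1 8.88) read 7.20 and 10.46 for the same genes. The other 3 read 5.09 to 5.48 for Adipoq and 6.30 to 6.82 for Ovgp1. Over the whole adipocyte list, the array labelled replicate 4 averaged 5.91, within the wild-type range. Over the oviduct and ciliated cell list it averaged 5.65, below every Lhr-null array. Replicate 3 averaged 6.19 and 6.37 over these lists, the highest of the double mutant. Adipoq also read 6.23 to 7.68 on the Fshr-CAM arrays and 7.77 on wild-type replicate 4, where Igf1 stayed at 8.72 or less. The part of these tissues in the Igf1 values was not tested, and in bulk RNA fewer cells of a type and less RNA per cell cannot be told apart.

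**Figure D3:**
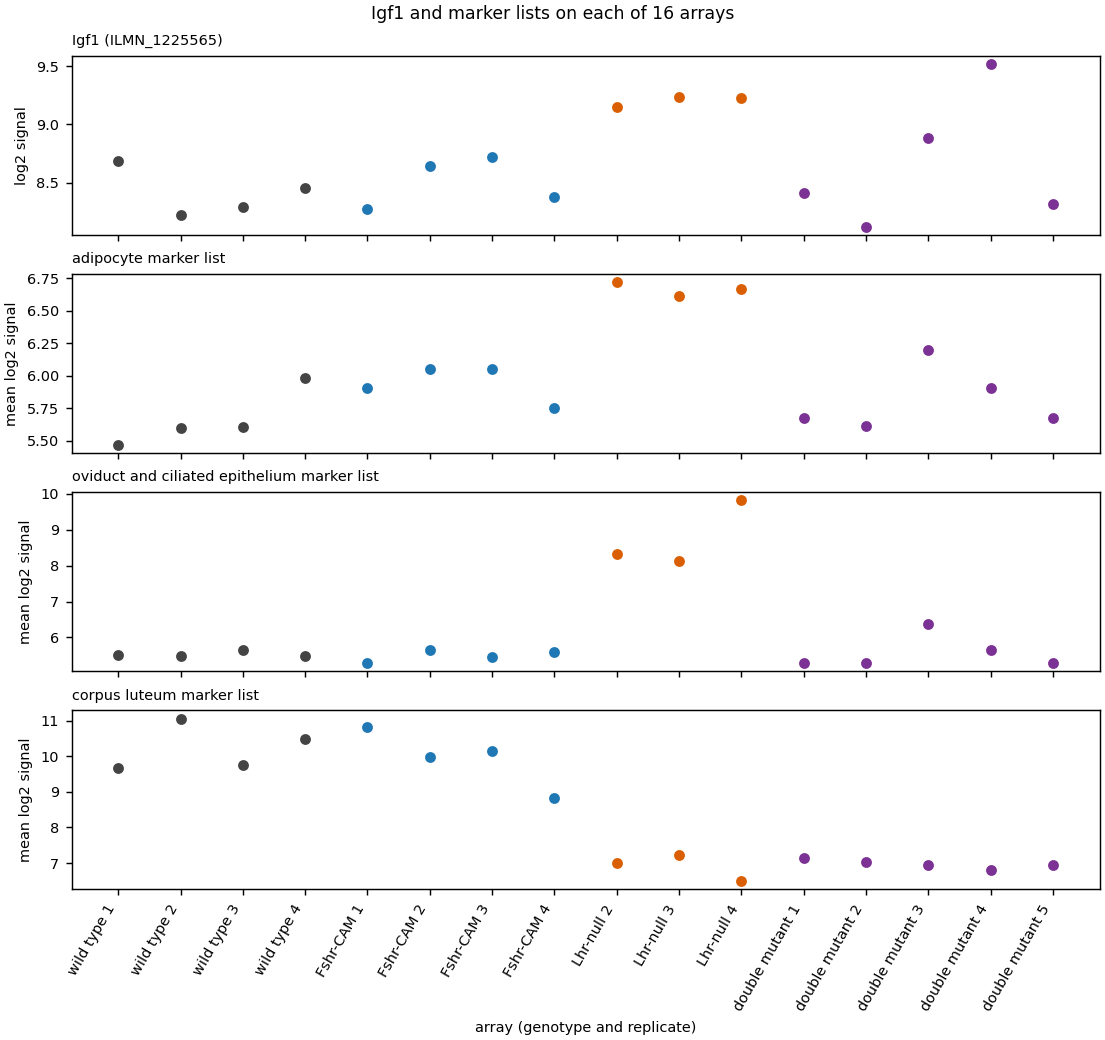
Igf1 (log2 signal, ILMN_1225565) and the mean log2 signal of marker lists (vertical axes) on each of 16 arrays (horizontal axis, genotype and replicate). Igf1 and both the oviduct and adipocyte lists are high on the 3 Lhr-null arrays. The array labelled double-mutant replicate 4 reaches 9.52 for Igf1, while both lists lie below the Lhr-null arrays there.

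Igf2, the other ligand, also had its highest mean in Lhr-null. Its single probe read 9.22, 9.34, 8.95 and 8.62 in wild type and 9.85, 8.85, 9.41 and 9.27 in Fshr-CAM. It read 9.99, 9.60 and 9.36 in Lhr-null and 9.71, 9.25, 9.68, 9.20 and 9.31 in the double mutant. All Lhr-null arrays were above all wild-type arrays, though the closest were 9.36 and 9.34. The difference between Lhr-null and wild type was 0.61 ± 0.23 (SE) on the log2 scale with an adjusted p of 0.0993 by limma, so Igf2 did not pass the threshold.

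The receptor Igf1r showed no called difference. At its brightest probe, ILMN_1249824, the log2 signal was 10.35 ± 0.17 (SD, n = 4) in wild type, 10.11 ± 0.36 (SD, n = 4) in Fshr-CAM, 10.30 ± 0.20 (SD, n = 3) in Lhr-null and 10.41 ± 0.23 (SD, n = 5) in the double mutant. For Lhr-null against wild type the 95% interval of the difference was -0.43 to 0.33, and for the double mutant against wild type it was -0.28 to 0.39. The groups overlapped at each of the 3 detected probes. These probes followed each other less closely than those of other members, with Pearson r of 0.562 to 0.648 over the 16 arrays. The largest Igf1r difference was at the dimmer ILMN_1239663, where the double mutant exceeded wild type by 0.43 ± 0.22 (SE) with an adjusted p of 0.265 by limma.

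Igfbp2, which encodes a binding protein for both ligands, fell in Lhr-null ovaries. At ILMN_2930897 its log2 signal was 8.11, 8.57, 8.71 and 8.95 in wild type and 8.70, 8.29, 8.72 and 8.42 in Fshr-CAM. It was 7.45, 7.84 and 8.10 in Lhr-null and 8.72, 8.09, 8.48, 7.92 and 8.22 in the double mutant. Every Lhr-null array lay below every wild-type and Fshr-CAM array, though the closest to wild type read 8.10 against 8.11. The double mutant overlapped both Lhr-null and wild type. Of all probes, 12.4% lay below wild type in this way, and the share for Fshr-CAM was not computed. Against wild type, Igfbp2 was lower in Lhr-null by 1.73-fold (95% interval 1.25 to 2.39), a log2 difference of -0.79 ± 0.22 (SE) with an adjusted p of 0.0337 by limma. The second probe, ILMN_1236788, gave 8.07 ± 0.31 (SD, n = 4) in wild type and 7.27 ± 0.24 (SD, n = 3) in Lhr-null, again with no overlap. Its difference was -0.80 ± 0.23 (SE), or 1.75-fold lower, with an adjusted p of 0.0403 by limma. With all 17 arrays both probes passed (5.81% of all probes did), at -1.06 with an adjusted p of 0.0265 for ILMN_2930897 and -1.01 with 0.026 for ILMN_1236788.

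No effect of Fshr-CAM on Igfbp2 was called, and at ILMN_2930897 the 95% interval of its difference from wild type was -0.49 to 0.38. Between the 2 genotypes without Lhr, the level was higher with Fshr-CAM by 0.49 ± 0.21 (SE) at that probe, with an adjusted p of 0.353 by limma. In order of mean level, Lhr-null (7.80), the double mutant (8.29), Fshr-CAM (8.53) and wild type (8.59) followed each other, and no pair of neighbours passed the threshold. Whether Fshr-CAM altered the effect of losing Lhr was asked by the interaction, which was 0.55 ± 0.29 (SE) for Igfbp2 with an adjusted p of 0.765. The call for Lhr-null was lost at both probes when any of wild-type replicates 2, 3 and 4 or Lhr-null replicates 2 and 3 was left out, with the direction kept.

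Other cell types also differed between these genotypes. The mean log2 signal over 7 corpus luteum genes was 9.68 to 11.07 in wild type, 6.48 to 7.24 in Lhr-null and 6.79 to 7.15 in the double mutant, where Ptgfr and Sfrp4 were undetected in both genotypes without Lhr. Over 10 endothelial genes it was 8.36 to 8.81 in wild type and 7.75 to 8.07 in Lhr-null. Over 11 oocyte genes it was 7.43 to 7.91 in wild type and 8.17 to 8.44 in Lhr-null. The spermatid genes read 4.85 to 5.61 in wild type and 5.78, 6.09 and 9.32 in Lhr-null, where the array at 9.32, replicate 2, also had the lowest Igfbp2 signal. The oviduct and adipocyte genes given above were higher in Lhr-null as well, while the pituitary genes stayed near background, with 0 of 8 detected in wild type and 1 to 2 in Lhr-null. The part of these tissues and cell types in the Igfbp2 result was not tested. The genes whose signal over the 16 arrays was most like that of Igfbp2, among 11732 genes, were Cited4 (Pearson r 0.856), Acot9 (0.848) and Tcn2 (0.844). These correlations include the difference between genotypes and are a description only.

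Igfbp5, whose protein binds both ligands and which is known in rodent ovary from granulosa cells of atretic follicles, rose in the double mutant. At ILMN_2682613 its log2 signal was 12.31, 12.19, 12.14 and 12.37 in wild type and 12.19, 12.75, 12.89 and 12.53 in Fshr-CAM. It was 12.68, 12.26 and 12.93 in Lhr-null and 12.84, 12.78, 13.13, 12.48 and 12.78 in the double mutant. All 5 double-mutant arrays were above all wild-type arrays, and the genotypes with a single change lay between and overlapped both. The difference between the double mutant and wild type was 0.55 ± 0.16 (SE), or 1.47-fold (95% interval 1.17 to 1.84), with an adjusted p of 0.0404 by limma. At ILMN_1254358 it was 0.59 ± 0.16 (SE) with an adjusted p of 0.034, although wild-type replicate 4 (12.34) overlapped the array labelled double-mutant replicate 4 (12.17). The third probe, ILMN_2964324, gave a difference of the same size, 0.60 ± 0.18 (SE), with an adjusted p of 0.0571, and did not pass. Without the array labelled double-mutant replicate 4, all 3 probes passed, by 0.63, 0.66 and 0.70 in the same order. Their adjusted p by limma was 0.0241, 0.0222 and 0.0275. In this comparison that fit called 647 higher and 892 lower of 22958 probes. With the array kept, 746 and 1078 of 23098 were called.

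Each single change gave an Igfbp5 difference in the same direction that was not called. For Fshr-CAM against wild type it was 0.34 ± 0.16 (SE) at ILMN_2682613 with an adjusted p of 0.93 by limma, and for Lhr-null against wild type it was 0.37 ± 0.18 (SE) with an adjusted p of 0.199. In order of mean level at that probe, wild type (12.25), Fshr-CAM (12.59), Lhr-null (12.62) and the double mutant (12.80) followed each other, and no tested pair of neighbours passed the threshold; Fshr-CAM was not tested against Lhr-null. The interaction was -0.16 ± 0.24 (SE) with an adjusted p of 0.95. The call in the double mutant was absent with all 17 arrays, where 2.65% of all probes passed and the difference at ILMN_1254358 was 0.58 ± 0.25 (SE) with an adjusted p of 0.273. It was also lost when any of wild-type replicates 1, 2 and 3 or double-mutant replicates 1, 2, 3 and 5 was left out.

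Granulosa cell and corpus luteum markers also differed between wild type and the double mutant, while theca and interstitial cell ranges overlapped. The mean log2 signal over 10 granulosa cell genes was 9.08 to 9.78 in wild type, 10.07 to 10.38 in Fshr-CAM, 9.78 to 10.29 in Lhr-null and 10.28 to 10.37 in the double mutant. Over 8 theca and interstitial cell genes it was 7.84 to 8.26 in wild type, 7.89 to 8.32 in Fshr-CAM, 8.04 to 8.49 in Lhr-null and 8.16 to 8.85 in the double mutant. Over 7 corpus luteum genes it was 9.68 to 11.07 in wild type and 8.84 to 10.83 in Fshr-CAM. It was 6.79 to 7.15 in the double mutant and likewise low, 6.48 to 7.24, in Lhr-null, where Igfbp5 was not called. The granulosa cell list includes Fshr itself, whose signal given above was higher in both genotypes with Fshr-CAM than in wild type. The mean without Fshr was not computed. The part of these cell types in the Igfbp5 result was not tested. On the array left out, Lhr-null replicate 1, Igfbp5 read 13.29 to 14.08 over its 3 probes, above the other arrays. The genes most like Igfbp5 over the 16 arrays were Dgcr2 (Pearson r 0.891), Gstt1 (0.873) and Slc2a1 (0.866), again as a description.

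**Figure D4:**
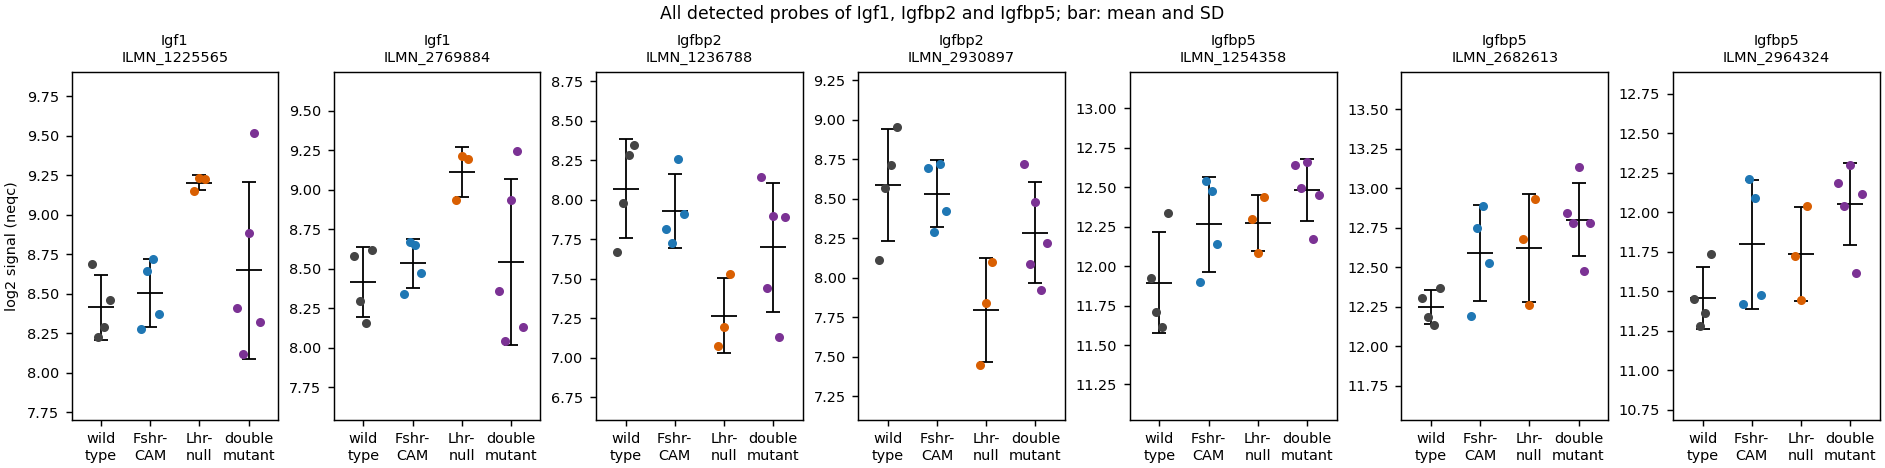
Log2 signal (vertical axis) of every detected probe of Igf1, Igfbp2 and Igfbp5 in the 4 genotypes (horizontal axis), with 1 point per array and bars for the mean and SD. At every probe shown the mean of Igf1 is highest and that of Igfbp2 lowest in Lhr-null, and the mean of Igfbp5 is highest in the double mutant.

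Igfbp4 encodes an inhibitory binding protein that pappalysin cleaves. At ILMN_1258988 its log2 signal was 11.47, 12.04, 11.07 and 12.09 in wild type and 11.48, 11.51, 11.59 and 10.93 in Fshr-CAM. It was 11.58, 11.67 and 11.88 in Lhr-null and 10.85, 10.76, 11.20, 11.67 and 11.09 in the double mutant. Of the 5 double-mutant arrays 4 lay below the Lhr-null arrays, and the array labelled replicate 4 lay among them. The difference between the double mutant and Lhr-null was -0.60 ± 0.24 (SE) with an adjusted p of 0.311 by limma, and that between the double mutant and wild type was -0.55 ± 0.22 (SE) with an adjusted p of 0.136. Neither passed the threshold, but without wild-type replicate 3 the latter was -0.75 ± 0.20 (SE) and passed, with an adjusted p of 0.0428.

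Pappa, the protease gene itself, spread most widely among the wild-type arrays. Its probe read 7.92, 7.88, 7.10 and 5.37 in wild type and 8.74, 7.28, 8.24 and 8.10 in Fshr-CAM. It read 6.87, 6.06 and 6.58 in Lhr-null and 7.23, 7.29, 7.44, 6.99 and 8.06 in the double mutant. All Lhr-null arrays were below all double-mutant arrays, with a difference of 0.89 ± 0.47 (SE) between these genotypes and an adjusted p of 0.462 by limma. The Fshr-CAM level exceeded wild type by 1.02 ± 0.46 (SE) with an adjusted p of 0.876, and by 0.46 without wild-type replicate 4. No Pappa difference was called.

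For Igfbp3, which encodes a major carrier of IGFs in blood, 1 Fshr-CAM array stood out. At ILMN_1219335 the Fshr-CAM arrays read 9.41, 7.06, 7.03 and 7.18, and at ILMN_2727503 they read 8.45, 6.70, 6.50 and 6.47. Replicate 1 was thus high at both probes. On the other genotypes ILMN_1219335 ranged from 6.97 to 7.59 in wild type, 6.29 to 7.31 in Lhr-null and 6.67 to 6.96 in the double mutant, and the last group lay below all wild-type and all Fshr-CAM arrays. At ILMN_2727503 the double mutant (5.81 to 7.09) overlapped both wild type, whose lowest array read 6.14, and Fshr-CAM. The double mutant differed from Fshr-CAM by -0.84 ± 0.39 (SE) on the log2 scale with an adjusted p of 0.303 by limma, and by -0.26 ± 0.20 (SE) with an adjusted p of 0.749 without Fshr-CAM replicate 1. The difference from wild type was -0.40 ± 0.39 (SE) with an adjusted p of 0.59.

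Igfbp6, whose protein prefers IGF2, and Igfbp7, a related secreted protein with low affinity for IGFs, showed no called difference. The Igfbp6 signal was 8.94 ± 0.20 (SD, n = 4) in wild type, 8.76 ± 0.32 (SD, n = 4) in Fshr-CAM, 9.31 ± 0.26 (SD, n = 3) in Lhr-null and 9.13 ± 0.38 (SD, n = 5) in the double mutant. The detected Igfbp7 probe read 13.45 ± 0.21 (SD, n = 4), 13.55 ± 0.35 (SD, n = 4), 13.36 ± 0.42 (SD, n = 3) and 13.57 ± 0.20 (SD, n = 5) in the same order. For Igfbp7 the 95% interval of the difference from wild type was -0.52 to 0.34 for Lhr-null and -0.25 to 0.50 for the double mutant. For Igfbp6 the interval for Lhr-null was -0.09 to 0.84.

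Further genes of the pathway were taken from a list of 40, covering other receptors, adaptors, stanniocalcins that restrain pappalysins, and kinases downstream. Of these, 33 had a probe and 26 were measured. Of the 26, 1 was called in Lhr-null against wild type and 1 in the double mutant against wild type (3.85% each), against 9.57% and 7.9% of all probes. In both cases it was Foxo1, which was higher, and no gene was called lower in any of the 6 comparisons. Pathway genes count once each by their brightest probe, whereas shares of all probes, here and below, count every probe. A fit on the brightest probe of each of 12137 genes called 668 higher and 837 lower in Lhr-null against wild type. For the double mutant against wild type it called 545 higher and 689 lower. Foxo1 encodes a transcription factor that insulin and IGF signals, through AKT, keep out of the nucleus. It read 10.28, 9.87, 10.26 and 10.10 in wild type and 10.34, 10.24, 10.91 and 10.70 in Fshr-CAM. It read 10.53, 10.88 and 11.40 in Lhr-null and 11.33, 10.40, 10.68, 11.02 and 11.08 in the double mutant. Both genotypes without Lhr lay above wild type on every array, by 0.81 ± 0.23 (SE) with an adjusted p of 0.037 by limma for Lhr-null and by 0.77 ± 0.20 (SE) with an adjusted p of 0.0283 for the double mutant. With all 17 arrays neither passed, with adjusted p of 0.699 and 0.307.

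The other 25 measured pathway genes were not called in any comparison. An unadjusted p under 0.05 was found for 5 of the 26 genes in Lhr-null against wild type (19.2%, against 25.5% of all probes) and for 5 in the double mutant against wild type (19.2%, against 22.8%). It was found for 0 in Fshr-CAM against wild type (5.39% of all probes) and 1 in the interaction (6.88%). For the double mutant it was found for 2 genes against Lhr-null (12.6% of all probes) and 3 against Fshr-CAM (16%). For Insr, the insulin receptor, and Igf2r, a receptor that clears IGF2, the 95% intervals of the difference between Lhr-null and wild type were -0.45 to 0.16 and -0.20 to 0.31. Stc2, a stanniocalcin, exceeded wild type by 1.01 ± 0.38 (SE) in the double mutant with an adjusted p of 0.117 by limma. The median over the 26 genes was 0.03 in Lhr-null and 0.07 in the double mutant against wild type.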

How the data were processed

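The submitters' processing notes name GenomeStudio 1.7.0 for the 17 arrays of the 4 genotypes. Per the file headers, the table deposited without normalisation pairs each probe's mean intensity on an array with a detection p-value. Further deposited tables hold quantile-normalised intensity values, identical to each other. Each array detected 19366 to 22006 probes (detection p under 0.05), at a median signal of 56.7 to 74.4; the number of arrays limits the precision.

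From the non-normalised intensities, log2 values were computed with neqc of limma 3.58.1 (offset 16, detection p-values) in R 4.3.3 with data.table (version 1.17.8). The deposited signals are not logged. Of all probes 34885 had 1 gene symbol, 18 several and 10378 none. Probes detected on at least 4 arrays entered the fit. One mean per genotype was fitted by lmFit and eBayes with an intensity trend on 16 arrays, which share 1 estimate of the spread, and 6 contrasts were tested with Benjamini-Hochberg adjustment. Each probe was tested on its own. The interaction subtracts the effect of Fshr-CAM with Lhr from that without Lhr. No scan date or chip was given in the labels, so batches could not be checked.

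Members, gene lists, the left-out array and the tests were chosen with earlier results of these data known. All member probes are described. Pathway genes are named where past the threshold (up to 6 per comparison), and the 3 genes most like each called member are named. Insr, Igf2r, Stc2 and the single marker genes, were named after their values were seen. Alternatives were all 17 arrays, 15 arrays, the authors' normalised values, signals centred on the median with no background correction, other filters, the mean or the brightest probe per gene, array weights with no intensity trend, a replicate block, fits on the compared arrays alone and leaving out each array; fits on 14 and 13 arrays were added after the data were seen. The fit was tested on simulated data. Promoter windows are from RefSeq, GRCm38.p6. Plots used matplotlib 3.10.9 and pandas 2.3.3.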

Additional observations from a re-analysis of the deposited data

Results flagged for a closer look

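Among 54 pairs of a member probe and a genotype, 3 had an array far from the others of its group by Dixon's test, which by chance marks about 1 in 20 groups. Fshr-CAM replicate 1 read 9.41 for Igfbp3 at ILMN_1219335, where the other Fshr-CAM arrays read 7.03 to 7.18. The same array read 8.45 at the second Igfbp3 probe, ILMN_2727503, against 6.47 to 6.70. Fshr-CAM replicate 4 read 10.93 for Igfbp4 at ILMN_1258988, below the 11.48 to 11.59 of its group, whereas the second Igfbp4 probe did not set it apart. The array labelled Lhr-null replicate 1, outside the comparisons, carried a mean log2 signal of 13.17 over 8 pituitary genes, against 4.40 to 4.61 on the other 16 arrays. Some of its member values also lay apart, with Igfbp6 at 6.23 and Igfbp7 at 11.59, while Igf2 stayed within the range of the other Lhr-null arrays.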

How the results depend on the processing

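Of 346 counts of member genes past the threshold under other settings, 310 were unchanged and 36 moved, each between 0 and 1, and no called difference changed sign. The rise of Igfbp5 in the double mutant against wild type went from 1 gene to 0 with all 17 arrays, signals centred on the median with no background correction, no detection filter, the replicate block and 13 arrays. The fits on 15, 14 and 13 arrays leave out, in addition, double-mutant replicate 4, then Lhr-null replicate 2, then double-mutant replicate 3. The fall of Igfbp2 in Lhr-null went from 1 to 0 with the same centred signals, no detection filter, array weights with no intensity trend, the replicate block, only the compared arrays, 14 arrays and 13 arrays. Igf1 became a call in Lhr-null against wild type (0 to 1) with 15, 14 and 13 arrays, the stricter filter, array weights with no trend and only the compared arrays. Igf1 also became a lower call in the double mutant against Lhr-null (0 to 1) with 15 arrays, at ILMN_1225565 only, and with 13 arrays. Leaving out single arrays gave 0 to 1 for these 4 counts and for the lower count in the double mutant against wild type (Igfbp4, without wild-type replicate 3), and 0 for the others. Igf1 was called in Lhr-null without double-mutant replicate 2 or 4. The latter is the same fit as that on 15 arrays, so it enters these counts under both names. Without the detection filter more probes were tested, and the fits that leave out arrays rest on fewer arrays. Why calls moved was not tested for any setting.

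Over all settings, Igfbp2 at ILMN_2930897 was past the threshold in 17 of 29, between -1.06 and -0.62 with adjusted p from 0.0149 to 0.137 by limma. Igfbp5 at ILMN_2682613 was past it in 16 of 29, between 0.30 and 0.63 with adjusted p from 0.0115 to 0.35. Igf1 at ILMN_1225565 in Lhr-null was past it in 8 of 29, between 0.29 and 0.88 with adjusted p from 0.00967 to 0.741.

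The labels do not say whether arrays of the same replicate number were paired. Of 21 same-numbered pairs, 6 had a correlation of deviations over 0.1 (range -0.48 to 0.33), and 3 of 15 arrays correlated best with their own number. No test was attached to these counts, so they cannot decide whether arrays were paired. With the replicate block, Igfbp2 at ILMN_2930897 gave -0.78 with an adjusted p of 0.0674 by limma and Igfbp5 at ILMN_1254358 gave 0.59 with 0.0933. Over all probes the block left 566 higher and 1012 lower in Lhr-null against wild type, where 853 and 1357 were called without it.

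Centring on the median and dropping the background correction, 2 choices changed together, moved the split in the double mutant against wild type from 746 higher and 1078 lower probes to 174 and 1687, and the median of all probes against Fshr-CAM from 0.02 to -0.10. With all 17 arrays the same comparison with wild type called 119 higher and 499 lower. Levels at the background limit what can be said of the 5 undetected probes.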
